A study of Sus scrofa with 6 samples.

Results

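The genes described here make cholesterol and fatty acids, or control the factors that switch those genes on. The list holds 32 genes, of which 30 were found among 19670 gene models, 25 by the symbol of the gene identifier and 5 (PMVK, STARD4, EBP, ELOVL6 and SREBF1) by the protein name in the deposited annotation. MVD and INSIG2 are not analysed here. By role, 17 of the genes found belong to sterol synthesis or transport, 9 to fatty acid synthesis and 4 to the control of sterol regulatory element-binding proteins (SREBPs). All 30 had enough reads to be tested.

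RNA was measured in primary cells that enzymes had freed from the cartilage of the external ear of 1 pig. The animal, aged 4 months, was wild-type for PPARD and of the cross Duroc x (Landrace x Large White). Before harvest, cultures received GW0742 for 24 h, a drug-like activator of PPARD, itself a nuclear receptor for fatty acids, or received the solvent DMSO alone. Each treatment has 3 libraries. The question behind the series is what PPARD does in cartilage of the ear. Since 1 pig gave all cells, and the labels do not call the cultures separate, the p-values reflect library-to-library spread alone, possibly of a technical kind.

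Cholesterol is built from acetyl-CoA through mevalonate, isoprenoids and squalene to lanosterol, which a series of enzymes then trims to cholesterol. Fatty acids are built from the same acetyl-CoA by acetyl-CoA carboxylase and fatty acid synthase, then lengthened and desaturated. Both routes are switched on by SREBPs, membrane-bound factors that SCAP escorts out of the endoplasmic reticulum when sterols are scarce and that INSIG proteins hold back when sterols are plentiful. SREBP2 acts mainly on sterol genes and SREBP1 mainly on fatty acid genes. Several of these genes, SCD, ME1 and FADS2 among them, have also been described as PPAR targets in rodent liver.

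Estimated reads per library ranged from 13133912 to 16913761, which left 14146 gene models to test. Known PPAR targets were higher with GW0742. ANGPTL4, an inhibitor of lipoprotein lipase, stood at 200, 176 and 185 CPM (counts per 1e6 reads, on TMM-scaled library sizes) with GW0742, against 16.03, 26.5 and 21.5 CPM with DMSO. CPT1A, which commits fatty acids to mitochondria, rose too (log2 fold change 1.95 ± 0.14, SE, edgeR adjusted p = 0.00151). PPARD itself did not pass (log2 0.11 ± 0.08, adjusted p = 0.499). Cartilage markers were present, with COL2A1 at 500, 456 and 465 CPM with GW0742 and 483, 541 and 511 CPM with DMSO, while MATN1 had only 1 or 2 reads in each library. COL1A2, a fibroblast marker, averaged 35120 CPM with GW0742 and 39570 CPM with DMSO, well above COL2A1.

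None of the 30 genes passed edgeR's quasi-likelihood test at an adjusted p under 0.05, in either direction, where 0.262% of all tested models did (0.184% higher and 0.0778% lower). DESeq2 called 1 of them, ACLY, lower with GW0742, where it called 1.43% of its models lower and 1.26% higher. At an unadjusted p under 0.05 in edgeR 2 genes were higher and 4 lower, and the same 6 were the genes whose groups did not overlap in CPM. These 6 are 20% of the list. Over all tested models 16.8% had an unadjusted p under 0.05 and 23.5% had groups that did not overlap (11.4% higher and 12.1% lower), so the list stood close to the background on both counts. The balance of higher and lower genes was not steady. It was 4 higher and 2 lower without GW0742 replicate 1 and also without GW0742 replicate 2, 1 higher and 4 lower without GW0742 replicate 3, 1 higher and 2 lower without DMSO replicate 1, 2 higher and 1 lower without DMSO replicate 2, and 4 higher and 3 lower without DMSO replicate 3. It was 4 higher and 4 lower with paired models summed. The counts over all tested models moved as well. In these settings 783 to 1216 models were higher and 842 to 1257 lower, of 14142 to 14431 tested. With all libraries, the 2 higher genes were LSS and ELOVL5, and the 4 lower were ACLY, MSMO1, SC5D and STARD4.

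The intervals show how large a change these libraries leave room for. For 23 of the 30 genes the 95% interval of the fold change, unadjusted for the number of genes, lay within 1.5-fold in both directions, where 62% of all tested models had such an interval. For 13 genes it lay within 1.25-fold, against 27.4% of all models. TM7SF2, PMVK, STARD4 and ELOVL6, with under 10 CPM each, and MSMO1, SC5D and SREBF1 had intervals that reached past 1.5-fold. Only the interval of STARD4 reached past 2-fold (log2 from -1.10 to -0.07), so 29 genes had intervals within it, as 86.3% of all models did.

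**Figure D1:**
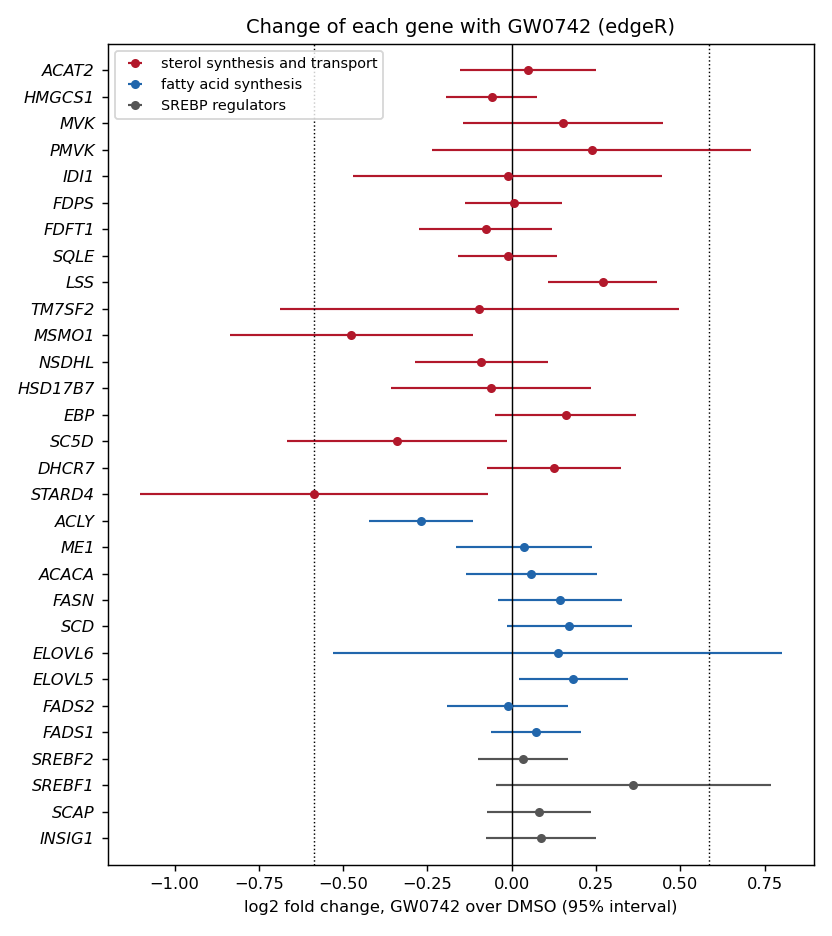
Log2 fold change of each of the 30 genes, GW0742 over DMSO, from edgeR (points), with 95% intervals (bars); dotted lines mark a 1.5-fold change and colours the role of the gene. Most intervals cross 0 and lie between the dotted lines, and those of LSS, ELOVL5, ACLY, MSMO1, SC5D and STARD4 lie to one side of 0.

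The medians of the roles were small. The 17 sterol genes had a median log2 fold change of -0.01, with 7 values above 0 and 10 below. The 9 fatty acid genes had a median of 0.07, with 7 above 0 and 2 below, and the 4 regulators a median of 0.08, all above 0. Over all tested models the median was -0.0015, with 49.7% of values above 0. The fatty acid median rests on GW0742 replicate 2, without which it was -0.0014, and the sterol median was -0.07 without GW0742 replicate 3. Summed over the sterol genes, the level was 401 ± 22.1 RPKM with GW0742 and 397 ± 16.03 RPKM with DMSO (reads per kilobase per 1e6 reads, SD, n = 3 each). Summed over the fatty acid genes it was 442 ± 39.3 RPKM with GW0742 and 429 ± 16.5 RPKM with DMSO.

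Among the regulators, SREBF2, which encodes SREBP2, was even across all libraries. It stood at 119, 121 and 119 CPM with GW0742 and 111, 120 and 121 CPM with DMSO (log2 0.03, 95% interval -0.10 to 0.17, edgeR adjusted p = 0.814). SREBF1 (ENSSSCG00000023124), which encodes SREBP1, was the regulator with the highest log2 value and the widest spread. Its values were 17.8, 22.9 and 28.7 CPM with GW0742 and 16.7, 16.2 and 21.2 CPM with DMSO (log2 0.36, 95% interval -0.05 to 0.77, edgeR adjusted p = 0.355). GW0742 replicate 1 lay inside the DMSO range, and the highest library was GW0742 replicate 3, without which the log2 value was 0.18. The model of SREBF1 covers 1494 bases, and its isoforms are not separated in these values.

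SCAP, the escort of SREBPs, stood at 132, 133 and 123 CPM with GW0742 and 127, 114 and 127 CPM with DMSO. INSIG1, which is both a brake on SREBPs and one of their most responsive targets, stood at 45.0, 44.2 and 45.9 CPM with GW0742 and 45.2, 40.2 and 41.8 CPM with DMSO. In each of these genes the groups overlapped, and the 95% intervals of the log2 fold changes ran from -0.07 to 0.24 for SCAP and from -0.08 to 0.25 for INSIG1. An INSIG1 change beyond 1.25-fold in either direction therefore lay outside its interval.

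HMGCS1, FDFT1 and SQLE, which act early, midway and just past squalene in the sterol route, had log2 values between -0.08 and -0.01. HMGCS1, which condenses acetyl-CoA units toward mevalonate, stood at 128, 125 and 131 CPM with GW0742 and 141, 129 and 130 CPM with DMSO (log2 -0.06, 95% interval -0.20 to 0.08). FDFT1, which joins farnesyl units into squalene, stood at 54.7, 57.9 and 57.8 CPM with GW0742 and 65.4, 52.9 and 61.2 CPM with DMSO (log2 -0.08, 95% interval -0.27 to 0.12). SQLE, which oxidises squalene and limits the rate of the later steps, stood at 66.3, 62.1 and 61.0 CPM with GW0742 and 62.8, 65.7 and 62.5 CPM with DMSO (log2 -0.01, 95% interval -0.16 to 0.13). The groups overlapped in each of these 3 genes, and edgeR adjusted p-values ran from 0.653 to 0.948.

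Among the other genes past squalene, LSS was higher and MSMO1 and SC5D lower with GW0742, all short of the adjusted threshold. LSS (ENSSSCG00000021418), which closes the rings of lanosterol, stood at 75.9, 72.1 and 80.4 CPM with GW0742, against 66.8, 60.4 and 62.1 CPM with DMSO. Every GW0742 library was above every DMSO library (log2 0.27 ± 0.07, edgeR adjusted p = 0.127, and between 0.0884 and 0.319 under the alternatives).

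MSMO1 (ENSSSCG00000008857), which removes methyl groups from the ring of lanosterol's products, stood at 47.8, 30.2 and 45.9 CPM with GW0742, against 56.1, 62.7 and 53.3 CPM with DMSO. The lowest library by far was GW0742 replicate 2, and the groups did not overlap (log2 -0.48 ± 0.16, edgeR adjusted p = 0.192). Without that library the log2 value was -0.29. SC5D (ENSSSCG00000028517), which sets the ring double bond in the step before DHCR7, stood at 20.1, 17.2 and 26.2 CPM with GW0742, against 27.1, 27.0 and 26.2 CPM with DMSO. GW0742 replicate 3 was level with the DMSO libraries, and on the deposited RPKM scale the groups overlapped (log2 -0.34 ± 0.14, edgeR adjusted p = 0.278). The log2 value was -0.21 without GW0742 replicate 2 and -0.53 without GW0742 replicate 3.

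STARD4 (ENSSSCG00000014202), a carrier that moves cholesterol between membranes, was the member with the lowest log2 value and one of the scarcest. It stood at 2.22, 1.93 and 2.88 CPM with GW0742, against 3.56, 3.98 and 3.06 CPM with DMSO, or 29, 31 and 44 reads with GW0742 against 60, 53 and 51 with DMSO. Every GW0742 library was below every DMSO library (log2 -0.59 ± 0.23, edgeR adjusted p = 0.246). DESeq2 did not call it either (adjusted p = 0.559).

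The other 9 sterol genes found had overlapping groups in CPM. Their log2 values ran from -0.10 for TM7SF2, a sterol reductase, to 0.24 for PMVK, the kinase that follows mevalonate kinase (MVK), and their edgeR adjusted p-values from 0.416 to 0.975. FDPS, which makes farnesyl pyrophosphate, was the most abundant sterol gene and had means of 145 ± 3.6 CPM with GW0742 and 145 ± 9.1 CPM with DMSO. DHCR7, the enzyme of the last reduction to cholesterol, averaged 27.0 ± 1.6 CPM with GW0742 and 24.8 ± 1.5 CPM with DMSO, and its groups were apart on the RPKM scale only. EBP, a sterol isomerase, averaged 73.7 ± 8.7 CPM with GW0742 and 66.0 ± 3.4 CPM with DMSO, with GW0742 replicate 3 as its highest library (83.5 CPM). NSDHL and HSD17B7, which act with MSMO1 in the removal of methyl groups, had log2 values of -0.09 and -0.06. ACAT2, the thiolase at the head of the route, had 0.05.

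**Figure D2:**
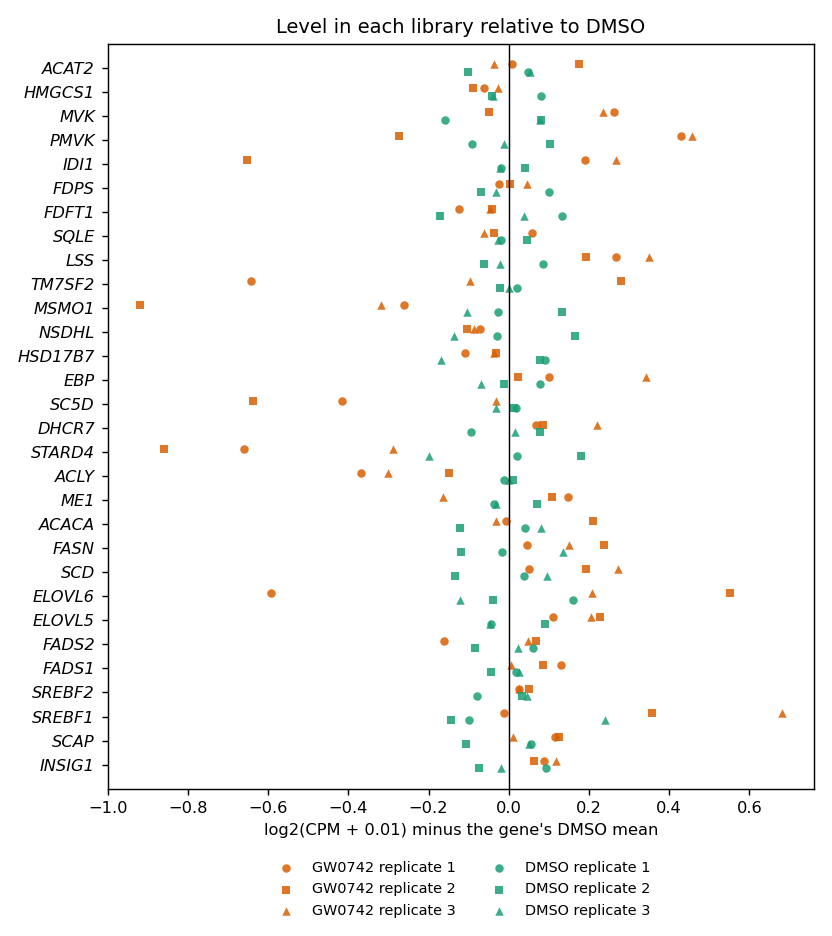
Each library's log2(CPM + 0.01) minus the gene's mean over the DMSO libraries, for the 30 genes. Marker shapes give the replicate number, which was not used to pair libraries. GW0742 replicate 2 lies far below the others for IDI1 and MSMO1, and the points of both groups mix in most rows.

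In the fatty acid route, ACLY (ENSSSCG00000017421), which splits citrate into acetyl-CoA in the cytosol and so feeds both routes, had the smallest p of the list. It stood at 193, 224 and 202 CPM with GW0742, against 247, 250 and 249 CPM with DMSO. All GW0742 libraries were below all DMSO libraries, and in the fitted means it decreased by 17.01% (log2 -0.27 ± 0.07, edgeR adjusted p = 0.122). Over all alternatives its adjusted p ran from 0.0169, in DESeq2, to 0.346. The DMSO libraries agreed closely for this gene, with a coefficient of variation of 0.7% in RPKM, against 9.9% over the GW0742 libraries.

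The enzymes that turn acetyl-CoA into palmitate had log2 values slightly above 0. ACACA, the carboxylase that commits acetyl-CoA to fatty acids, stood at 111, 130 and 110 CPM with GW0742 and 115, 103 and 118 CPM with DMSO (log2 0.06, 95% interval -0.14 to 0.25). FASN, fatty acid synthase, stood at 173, 198 and 186 CPM with GW0742 and 166, 154 and 184 CPM with DMSO (log2 0.14, 95% interval -0.04 to 0.33). ME1, which supplies NADPH, stood at 99.5, 96.6 and 80.0 CPM with GW0742 and 87.4, 94.2 and 87.7 CPM with DMSO (log2 0.04, 95% interval -0.17 to 0.24). Groups overlapped in each of them. A difference between ACLY and these genes was not tested.

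SCD and ELOVL5 had the highest log2 values of the fatty acid genes. SCD, which makes oleate, stood at 326, 359 and 380 CPM with GW0742 and 323, 287 and 336 CPM with DMSO (log2 0.17, 95% interval -0.02 to 0.36, edgeR adjusted p = 0.337), and GW0742 replicate 1 lay within the DMSO range. ELOVL5 (ENSSSCG00000024149), which lengthens polyunsaturated fatty acids, stood at 53.5, 58.0 and 57.0 CPM with GW0742, against 48.0, 52.7 and 47.9 CPM with DMSO. Its groups did not overlap, though by a gap of less than 1 CPM (log2 0.18 ± 0.07, edgeR adjusted p = 0.249).

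FADS2 and FADS1 act in turn on polyunsaturated fatty acids, and their groups overlapped. FADS2, the delta-6 desaturase, stood at 84.8, 99.6 and 98.3 CPM with GW0742 and 99.1, 89.7 and 96.4 CPM with DMSO (log2 -0.01, 95% interval -0.19 to 0.17). FADS1, the delta-5 desaturase, stood at 155, 151 and 143 CPM with GW0742 and 144, 138 and 145 CPM with DMSO (log2 0.07, 95% interval -0.06 to 0.21). FADS1, FADS2 and FADS3 lie side by side on RefSeq's Sscrofa11.1 assembly, and FADS3, no member of the list, had a log2 value of -0.08. ELOVL6, which lengthens palmitate, is covered by a model of only 388 bases, with 22 to 60 reads per library. Its values of 1.68, 3.74 and 2.94 CPM with GW0742 enclosed those of 2.85, 2.48 and 2.34 CPM with DMSO.

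A pair of models carries the same protein for IDI1, LSS, ACACA and FASN, and this changed what could be read for the first. IDI1, which isomerises isopentenyl diphosphate, stood at 81.9, 45.6 and 86.4 CPM with GW0742 and 70.8, 73.8 and 70.6 CPM with DMSO in the model that bears the symbol. GW0742 replicate 2 alone was far lower there. The second model, ENSSSCG00000027363, took 516 reads in that library, or 41.4% of the reads of the pair. It took 9 and 27 reads in GW0742 replicates 1 and 3, and 4, 1 and 4 in the DMSO libraries.

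Summed over both models, IDI1 was even among the GW0742 libraries and above all DMSO libraries. The sums were 82.5, 77.8 and 88.2 CPM with GW0742, against 71.0, 73.9 and 70.9 CPM with DMSO (log2 0.20, 95% interval 0.05 to 0.36, edgeR adjusted p = 0.188). The symbol model alone gave a log2 value of -0.01. Whether the paired models are copies of a gene or pieces of 1 gene, and how reads were shared between them, was not tested, so both the single and the summed values are uncertain.

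For LSS both models pointed the same way. The second model, ENSSSCG00000028960, stood at 71.0, 52.9 and 73.4 CPM with GW0742, against 44.6, 47.5 and 49.1 CPM with DMSO (log2 0.48, 95% interval 0.21 to 0.76, edgeR adjusted p = 0.122), and DESeq2 called it higher (adjusted p = 0.0151). The sum of both models was 147, 125 and 154 CPM with GW0742, against 111, 108 and 111 CPM with DMSO. That sum had a log2 fold change of 0.36 ± 0.08 and an edgeR adjusted p of 0.0993.

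The second FASN model was also higher in every GW0742 library than in any DMSO library, at 85.3, 79.6 and 85.4 CPM with GW0742 against 71.9, 69.6 and 73.5 CPM with DMSO (edgeR adjusted p = 0.147). The summed FASN value had a log2 fold change of 0.17, with a 95% interval from 0.01 to 0.32 and an edgeR adjusted p of 0.265. For ACACA the second model has 225 bases and took at most 2.21% of the reads of the pair, and the sum gave a log2 value of 0.06.

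**Figure D3:**
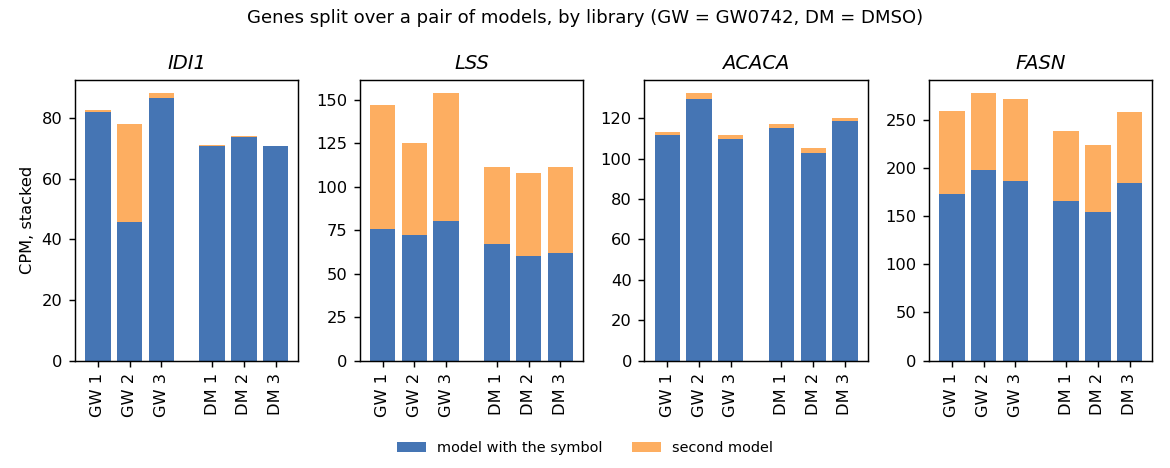
CPM of the model with the symbol (blue) and of the second model with the same protein (orange), stacked, in each GW0742 and DMSO library. In GW0742 replicate 2 the second IDI1 model holds 41.4% of the reads of the pair, and the stacked LSS bars are higher in all GW0742 libraries than in all DMSO libraries.

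Levels between genes can be compared per length, as deposited RPKM, where the 30 genes spanned a 90.2-fold range with DMSO. ACLY was highest at 107 ± 10.5 RPKM with GW0742 and 126 ± 0.89 RPKM with DMSO. With DMSO it was followed by SCD at 103 ± 10.3 RPKM and FDPS at 85.2 ± 6.6 RPKM, and the ranges of these 3 genes over the DMSO libraries did not overlap. FADS2, EBP and IDI1 came next, at 55.3, 52.0 and 50.3 RPKM. At the low end stood MVK at 4.55 RPKM, STARD4 at 2.85 RPKM and TM7SF2 at 1.40 RPKM. TM7SF2 shares its reaction with another sterol reductase. Of 29 neighbouring pairs in this order, 17 had overlapping ranges over the DMSO libraries and 12 did not.

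Most of the list was well expressed in these cells. The DMSO mean of 24 genes lay above the median of all tested models (7.53 RPKM), and ACLY lay at the 95.9th percentile. SREBF2 exceeded SREBF1 by 2.77-fold in mean RPKM with GW0742 and by 3.47-fold with DMSO. The spread between libraries was slightly wider with GW0742, with a median coefficient of variation of 9.9% over the genes, against 7.0% with DMSO. GW0742 replicate 2 was the treated library farthest from the DMSO mean for 12 genes, replicate 3 for 10 and replicate 1 for 8.

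Genes beside these routes were read from 4 added lists, and none of their tested members passed edgeR's adjusted threshold. Of 19 tested further synthesis enzymes 2 were higher and 3 lower at an unadjusted p under 0.05, where 7.93% and 8.91% of all tested models were. Groups did not overlap in 9 of the 19, 4 higher and 5 lower. That was 47.4%, against 23.5% of all tested models, and the difference in share was not tested. The smallest p belonged to ACSL3, which activates long-chain fatty acids, at 29.4, 32.9 and 36.3 CPM with GW0742 and 27.4, 26.1 and 26.3 CPM with DMSO (log2 0.31, edgeR adjusted p = 0.164). MCAT, of mitochondrial fatty acid synthesis, had a log2 value of 0.32 (edgeR adjusted p = 0.193). The sterol enzyme CYP51A1, named after its values were seen, had a log2 value of 0.07 (95% interval -0.11 to 0.26).

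Among 12 tested genes of SREBP processing and degradation, 1 was higher and 1 lower at an unadjusted p under 0.05. This was 16.7% of the list, close to the 16.8% of all tested models. Groups did not overlap in 2 of the 12 genes, or 16.7%, against 23.5% of all tested models. RNF145, a ubiquitin ligase linked to SCAP, had a log2 value of 0.38 (edgeR adjusted p = 0.259) with overlapping groups. PRKAA1, a catalytic subunit of AMP-activated kinase, which restrains lipid synthesis, stood at 5.67, 2.68 and 15.6 CPM with GW0742 and 19.8, 20.9 and 17.1 CPM with DMSO. Its groups did not overlap (log2 -1.27, 95% interval -2.34 to -0.19, edgeR adjusted p = 0.233). A further model with that protein name, ENSSSCG00000016858, stood at 19.6, 23.9 and 19.4 CPM with GW0742 and 21.7, 21.3 and 19.97 CPM with DMSO, with a log2 value of 0.00. How reads were shared between these models was not tested.

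Of 16 tested genes of sterol sensing, efflux, transport and esterification, 4 were higher and 3 lower at an unadjusted p under 0.05. This was 43.8% of the list, against 16.8% of all tested models. Groups did not overlap in 6 of the 16, 3 higher and 3 lower, or 37.5%, against 23.5% of all tested models. Neither difference in share was tested. SOAT1, which esterifies cholesterol for storage, stood at 37.0, 35.8 and 31.1 CPM with GW0742, against 28.3, 28.8 and 28.2 CPM with DMSO (log2 0.29, edgeR adjusted p = 0.165). ABCG1, a sterol exporter, had only 2, 8 and 6 reads with GW0742 and 14, 12 and 16 with DMSO. Its log2 value was -1.31 (edgeR adjusted p = 0.151). ABCA1, the main cholesterol exporter, is named after its values were seen, at 33.8, 33.1 and 40.6 CPM with GW0742, against 30.1, 23.7 and 30.6 CPM with DMSO (log2 0.35, edgeR adjusted p = 0.213). ABCA1 and ABCG1 are known targets of the sterol sensor LXR, as are LPCAT3 and MYLIP, also named after their values were seen. LPCAT3 had a log2 value of 0.31 (edgeR adjusted p = 0.27) and MYLIP of 0.27 (edgeR adjusted p = 0.481). Of these targets ABCG1, with at most 16 reads in any library, was lower and the others higher. None passed the adjusted threshold, and a shared response was not tested. SCARB1 was also higher (log2 0.21, edgeR adjusted p = 0.208). NR1H2, which encodes a form of LXR, was lower (log2 -0.19, edgeR adjusted p = 0.169), as was CYP7B1 (log2 -0.43, edgeR adjusted p = 0.249).

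In glycerolipid assembly, 1 of 15 tested genes was higher and 1 lower at an unadjusted p under 0.05. This was 13.3% of the list, against 16.8% of all tested models. ACSL5, an acyl-CoA synthetase, stood at 51.8, 50.4 and 50.5 CPM with GW0742, against 43.9, 41.1 and 42.8 CPM with DMSO (log2 0.25, edgeR adjusted p = 0.124). AGPAT1, which builds phosphatidic acid, had a log2 value of -0.18 (edgeR adjusted p = 0.231). The groups did not overlap in either gene. In the whole list they did not overlap in 7 of the 15 genes, 4 higher and 3 lower. That was 46.7%, against 23.5% of all tested models, and the difference in share was not tested.

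Markers of other cells were read beside these results, since in bulk RNA fewer cells of a type and less RNA per cell cannot be told apart. All 6 tested endothelial markers, of 8 listed, had log2 values above 0, and their summed level ran from 98.0 to 133 CPM with GW0742, against 63.0 to 88.5 CPM with DMSO. None of the 6 passed edgeR (adjusted p from 0.0978 to 0.219), though all 6 had an unadjusted p under 0.05, and in DESeq2 both KDR, at an adjusted p of 0.0232, and PECAM1, at 0.000497, were called higher. CLDN5 made up much of the sum with a log2 value of 0.43, while PECAM1, KDR, TIE1 and ESAM had log2 values from 1.16 to 1.61. Adipocyte markers, 5 of 8 with a model, summed to between 10.8 and 15.2 CPM with GW0742 and between 12.7 and 15.6 CPM with DMSO. LIPE made up most of this sum, at 8.42, 13.8 and 9.54 CPM with GW0742 and 13.95, 10.1 and 11.6 CPM with DMSO. CIDEA had 14 to 26 reads per library, and LEP at most 1 read in any library. Cartilage markers, 10 of 10 with a model, summed to between 6163 and 6394 CPM with GW0742 and between 6717 and 6798 CPM with DMSO. FMOD made up most of this sum, with a log2 value of -0.02. Of the 9 tested, 7 had log2 values below 0 and 2 above. ACAN fell (log2 -0.50 ± 0.06, edgeR adjusted p = 0.0185). COL11A1 did not pass edgeR (log2 -0.28, adjusted p = 0.114), though DESeq2 called it lower (adjusted p = 0.00445). Fibroblast markers, 6 of 7 with a model, summed to between 51520 and 57190 CPM with GW0742 and between 57260 and 62200 CPM with DMSO. Of these, 2 had log2 values above 0 and 4 below. None passed edgeR, though DESeq2 called THY1 lower (log2 -0.28, adjusted p = 0.000211, against 0.0788 in edgeR). The part of endothelial, cartilage or fibroblast cell content in the values of ACLY, LSS and the other synthesis genes was not tested.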

How the data were processed

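Per the file headers, each deposited library file gives, for every gene model, the authors' estimated count and its RPKM. A deposited series table holds RPKM values of all 6 libraries. The genome build was Sscrofa 10.2, per the submitters' processing notes. Which aligner and counter made the values is not given in the sources used here. Per the labels' protocols, oligo(dT)-captured mRNA was copied with random hexamers and read on an Ion Proton instrument, with no step named that marks the strand.

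A gene name table matched 11147 of the 19670 models, and protein accessions of the RefSeq gene table (Sscrofa11.1) a further 1157, used for added lists and markers. Estimated counts were rounded, filtered with filterByExpr (minimum count 10) and scaled by TMM. The GW0742 to DMSO difference, with no block, was tested in edgeR 4.0.16 (R 4.3.3) with quasi-likelihood F statistics. Adjusted p-values are Benjamini-Hochberg values over all tested models, two-sided, with a threshold of 0.05. The SE is the log2 fold change divided by the root of F, and 95% intervals use it with the F-test's degrees of freedom. A count of 3 reads is between 0.177 and 0.228 CPM. Intervals and such floors ignore that reads copied by PCR are not independent.

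Genes given in full were fixed by a rule: 17 central genes, any with an unadjusted p under 0.05 or groups apart, and the 2 smallest p-values of each added list. The members and lists were chosen with earlier results of these data known. Alternatives were median-of-ratios factors, DESeq2 1.42.0, no filter, 1 library left out at a time, a replicate block, limma 3.58.1 on log2(RPKM + 1) and log2(RPKM + 0.1), a robust prior, an adjusted p under 0.1, and summed models.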

Additional observations from a re-analysis of the deposited data

How the results depend on the processing

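In the main edgeR test 26 models were higher and 11 lower. DESeq2 gave 198 and 224, no filter 13 and 3, limma on log2(RPKM + 1) 10 and 2, or 7 and 1 with no filter, limma on log2(RPKM + 0.1) 7 lower, and an adjusted p under 0.1 138 and 105. Between 6 and 54 models were higher, and between 0 and 47 lower, when any 1 library was dropped. With the replicate number as a block edgeR gave 10 higher and 0 lower (1102 lower at an unadjusted p under 0.05), and the sterol median was -0.0542. Same-numbered libraries had deviations that correlated at 0.005, -0.032 and -0.103, against -0.037 to 0.068 for the other pairs. This gave no sign that the numbers pair libraries, but 3 libraries per group cannot exclude it. The cause of these moves was not tested. Among the 30 genes no alternative called one higher, and DESeq2 alone called one lower, ACLY, so their count lower was 1 there. In DESeq2 the second LSS model, which this count leaves out, was called higher (adjusted p = 0.0151). Over left-out libraries the sterol median ran from -0.0725 to -0.0063 and the fatty acid median from -0.0014 to 0.1068. Of the 30 genes 20 kept their direction under all 15 alternatives. IDI1 turned to 0.2037 in summed models, since reads of the second model were added. SQLE turned to 0.012 and FADS2 to 0.0096 in limma on log2(RPKM + 1), with and without the filter, and to 0.0125 and 0.0097 on log2(RPKM + 0.1). With 1 library left out, signs also turned for IDI1 (-0.1769 to 0.2303), SQLE (-0.0462 to 0.0118), FADS2 (-0.0536 to 0.0590), ACAT2 (-0.0181 to 0.0924), FDPS (-0.0283 to 0.0569), TM7SF2 (-0.3367 to 0.1052), ME1 (-0.0210 to 0.1274), ACACA (-0.0236 to 0.1025), ELOVL6 (-0.1336 to 0.3866) and SREBF2 (-0.0062 to 0.0584). The genes with the fewest reads per library were TM7SF2 (21 to 49), ELOVL6 (22 to 60) and STARD4 (29 to 60), and how far depth rather than spread sets their intervals was not tested.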
